A study of Mus musculus with 16 samples.

Results

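The matrix metalloproteases (MMPs), the ADAM and ADAMTS proteases and the tissue inhibitors of metalloproteases (TIMPs) were taken as every mouse gene whose symbol is Mmp, Adam, Adamts or Timp followed by a number. Of 79 such symbols in the annotation, 60 had a row among the 32989 genes of the count table: 20 MMP, 19 ADAM, 18 ADAMTS and 3 TIMP genes. Timp4 is not analysed here. All 60 are protein coding in the annotation except Mmp1a, a polymorphic pseudogene. The genes came from 16 libraries of hair follicle stem cell (HFSC) organoids, in which cells of C57BL/6J mice grow in a 3D culture that holds both HFSCs and their progenitors. After 2 weeks the cells were sorted on the integrin α6 and the stem cell marker CD34. The groups were untreated α6+/CD34- cells, α6+/CD34- cells after 72 h with N1-acetylspermidine (N1-AcSpd, an acetylated polyamine), untreated α6+/CD34+ cells and α6+/CD34+ cells after N1-AcSpd. Each of 4 mice gave 1 library to every group, and both treated groups came from the same mice as their controls. The label WT stands in the sample titles of the untreated groups, and those of the treated groups name N1-AcSpd instead.

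MMPs are zinc proteases that cut collagens, laminins and other matrix proteins, and most of them are secreted as inactive precursors. ADAMs are membrane-bound relatives that release the outer parts of growth factors, adhesion molecules and Notch receptors from the cell surface, while ADAMTS proteases are secreted and cut proteoglycans and procollagens. TIMPs bind the active site of these enzymes, and in skin the balance between proteases and inhibitors shapes the basement membrane on which keratinocytes and hair follicle cells sit.

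RNA was read at the 3' end with unique molecular identifiers (UMIs), which tag single molecules, and library totals ran from 15480075 to 29074855 UMIs. Some overlapping genes, named below, had near-identical counts, so a molecule may be counted for more than 1 gene. The sort marker Cd34 lay between 2.87 and 3.65 CPM (counts scaled to a common library total) in the CD34- libraries and between 43.4 and 64.0 CPM in the CD34+ libraries. Summed HFSC markers (9 genes) ran from 65.6 to 94.4 CPM in CD34- and from 385 to 641 CPM in CD34+ libraries, and 7 differentiation markers of keratinocytes from 1030 to 1560 CPM and from 295 to 399 CPM. Krt15 held most of the HFSC sum in CD34+ libraries, at 238 to 447 CPM, and the sum includes Cd34. Lgr5, Lgr6 and Tcf7l1 overlapped between CD34- and CD34+ libraries, and the other HFSC markers did not. Fibroblasts make many MMPs, and their 10 markers summed to 0.866 to 2.64 CPM in CD34- and 0.307 to 0.932 CPM in CD34+ libraries, with no single marker above 0.996 CPM. Of 7 melanocyte markers, Mitf (16.9 to 23.9 CPM) and Pmel (8.83 to 11.7 CPM) held most of the sum, and the others in the table stayed at or below 0.867 CPM. The 9 immune markers summed to 10.7 to 13.6 CPM in CD34- and 10.7 to 14.5 CPM in CD34+ libraries. H2-Ab1 (5.96 to 11.0 CPM) and Itgam (2.52 to 5.17 CPM) held most of this, Ptprc ran from 0 to 2.03 CPM, Cd3e, Cd74 and Lyz2 stayed at or below 0.171 CPM, and Cd207 and Adgre1 had no row. Pecam1 was counted at 1690 to 2050 CPM in all libraries, while the endothelial markers Kdr and Tie1 stayed at or below 0.565 CPM. The part of other cells in the results was not tested, and in these bulk samples fewer cells of a type and less RNA per cell cannot be told apart.

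Of the 60 genes, 34 had a mean of at least 5 UMIs per library and were tested: 13 MMP, 9 ADAM, 9 ADAMTS and 3 TIMP genes. The other 26 included Mmp8, Mmp25, Adam7, Adam22, Adam33 and Adamts12, and 20 of the 60 never reached 5 UMIs in any library. The highest count among the 26 was 18 UMIs, for Mmp16. Mmp1a and Mmp1b, the mouse relatives of human interstitial collagenase, reached at most 10 and 4 UMIs. Mmp1a had 7, 4, 9 and 3 UMIs in untreated CD34- cells of mice 1 to 4 and 0, 0, 0 and 2 in untreated CD34+ cells, and it passed in a fit without the low-count filter (adjusted p = 0.0181). Mmp8, the neutrophil collagenase, had 1 UMI in 1 library. Some counts are shared with overlapping genes, and levels are compared between groups here and not between genes.

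Untreated CD34+ HFSCs were first compared with untreated CD34- progenitors. Of the 34 genes tested, 12 differed at an adjusted p under 0.05 (35.3%), beside 32.1% of all 19049 genes tested. In HFSCs 8 of them were higher (16.1% of all genes) and 4 were lower (16.1% of all genes). The higher genes were the inhibitors Timp2 and Timp3, the membrane-bound Mmp14 and Mmp24, the secreted Mmp2 and Mmp19, the sheddase Adam17 and the proteoglycanase Adamts9. The lower genes were the stromelysins Mmp3 and Mmp10, the leukocyte and tumour protease Adam8 and the proteoglycanase Adamts1. The median log2 fold change of the 34 genes was 0.01, beside 0.02 for all genes tested.

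In N1-AcSpd cells 17 of the 34 genes differed between HFSCs and progenitors (50.0%), beside 33.3% of all genes tested. Of them 10 were higher in HFSCs (16.5% of all genes) and 7 were lower (16.8% of all genes). These libraries are separate from the untreated ones but come from the same mice. All 12 genes called in untreated cells were also called here. The 5 further genes were Timp1 and Adamts7, which were higher, and Mmp15, Adamts5 and Adamts15, which were lower. The median of the 34 genes was 0.05, beside -0.01 for all genes tested. The plot of cell type effects shows that the proteases were found on both sides of 0 and that the 3 inhibitors tested lay above it. Of all 19049 genes, 10007 lay above 0 in untreated cells and 9345 with N1-AcSpd. Timp1 was not called in untreated cells, and the Timp3 counts are shared with Syn3.

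**Figure D1:**
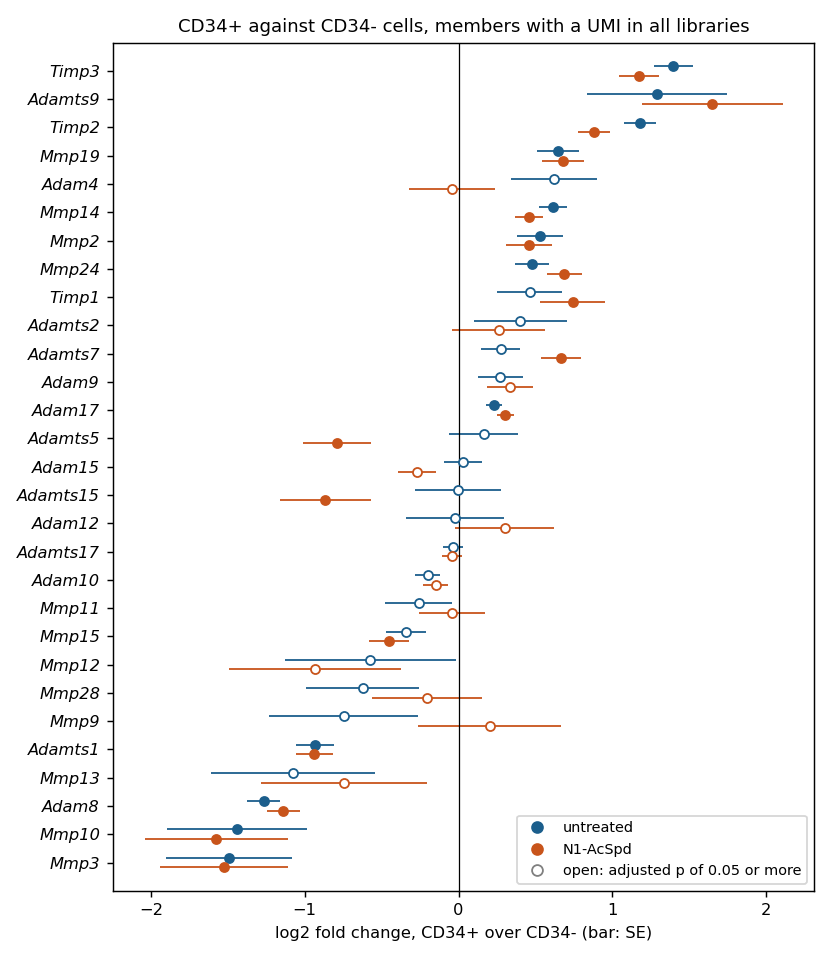
Log2 fold change of CD34+ over CD34- cells with its standard error (SE) for the 29 tested genes that had a UMI in all 16 libraries, in untreated (blue) and N1-AcSpd (orange) cells. Filled points passed an adjusted p of 0.05. Timp3, Adamts9 and Timp2 lie highest in untreated cells and Mmp3, Mmp10 and Adam8 lowest.

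All 3 inhibitors tested had higher means in CD34+ cells in both conditions. Timp2 (ENSMUSG00000017466, chromosome 11, 118301069 to 118355740 on GRCm38) encodes an inhibitor that also helps MMP14 to activate the MMP2 precursor. In mice 1 to 4 it was at 12.6, 13.9, 12.7 and 12.8 CPM in untreated CD34- cells and at 31.8, 28.6, 26.4 and 31.0 CPM in untreated CD34+ cells. After N1-AcSpd the values were 12.0, 14.6, 10.9 and 12.2 CPM in CD34- and 22.5, 23.3, 18.8 and 26.6 CPM in CD34+ cells. All 8 CD34+ libraries lay above all 8 CD34- libraries. The untreated log2 fold change was 1.18 ± 0.10 (SE, adjusted p = 1.95e-06), a 2.27-fold difference. With N1-AcSpd it was 0.88 ± 0.10 (adjusted p = 1.95e-05). Both calls held without any single library or mouse.

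Timp3 (ENSMUSG00000020044, chromosome 10, 86300372 to 86349506) encodes the inhibitor that stays bound to the matrix and also blocks ADAM17. Its level was 15.9, 15.1, 12.0 and 15.0 CPM in untreated CD34- cells of mice 1 to 4 and at 40.0, 37.0, 34.4 and 41.1 CPM in untreated CD34+ cells. Under N1-AcSpd it stood at 9.03, 11.9, 7.64 and 11.6 CPM in CD34- cells and at 21.0, 22.8, 22.5 and 24.3 CPM in CD34+ cells. The 4 groups did not overlap in any pairing. HFSCs were 2.63-fold higher without treatment (log2 1.40 ± 0.13, adjusted p = 2.79e-06) and 2.25-fold higher with it (log2 1.17 ± 0.13, adjusted p = 1.07e-05). Timp3 lies within Syn3, a gene of the opposite strand, and the mean counts of both differed by 0.409%, so the reads cannot be told apart and every Timp3 value is also a Syn3 value.

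Timp1 (ENSMUSG00000001131, chromosome X, 20870166 to 20874735) encodes the secreted inhibitor that binds the MMP9 precursor. It overlaps Syn1 on the opposite strand, whose mean count differed by 13.9%, and the counts of both genes correlated at r = 0.964. Timp1 was at 1.16, 2.04, 2.12 and 1.58 CPM in untreated CD34- cells and at 1.82, 2.41, 2.17 and 3.08 CPM in untreated CD34+ cells, with overlapping groups (log2 0.46 ± 0.21, adjusted p = 0.119). With N1-AcSpd the groups were apart, at 1.16, 1.74, 1.86 and 1.39 CPM and at 2.60, 2.50, 2.27 and 2.94 CPM (log2 0.74 ± 0.21, adjusted p = 0.0145). The difference between both effects was 0.28 ± 0.30 (log2, unadjusted p = 0.365), so a cell type effect that depends on treatment was not shown. The N1-AcSpd call held without any single library and was lost without mouse 2 (adjusted p = 0.0538) or mouse 4 (adjusted p = 0.0953).

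**Figure D2:**
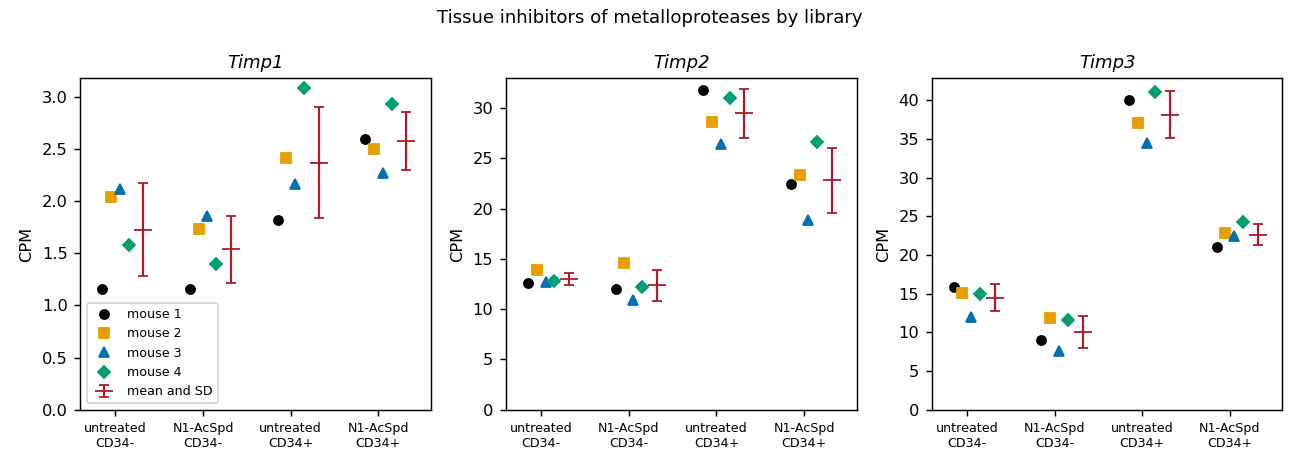
CPM of Timp1, Timp2 and Timp3 in each of the 16 libraries (points, by mouse) with the mean and SD of each group of 4 (red). For Timp2 and Timp3 every CD34+ library lies above every CD34- library, and Timp3 lies lower with N1-AcSpd in both cell types.

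Among the membrane-bound MMPs, Mmp14, which encodes a collagenase of the cell surface and the main activator of MMP2, was at 18.4, 18.9, 18.0 and 20.1 CPM in untreated CD34- cells of mice 1 to 4. In untreated CD34+ cells it was at 27.9, 26.5, 27.7 and 33.4 CPM, without overlap (log2 0.62 ± 0.09, adjusted p = 0.000176). N1-AcSpd libraries held it at 18.4, 19.5, 16.0 and 18.9 CPM in CD34- cells and at 23.4, 23.3, 23.8 and 29.5 CPM in CD34+ cells (log2 0.46 ± 0.09, adjusted p = 0.00137). Mmp24, a further membrane-type MMP, had means of 7.93 ± 0.70 and 11.1 ± 0.60 CPM (SD, n = 4) in untreated CD34- and CD34+ cells. Its log2 fold change was 0.48 ± 0.11 without treatment (adjusted p = 0.00528) and 0.69 ± 0.11 with it (adjusted p = 0.000343). An unstranded overlap touches this gene, since BC029722 on the opposite strand had a mean count that differed by 6.90%.

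Mmp15, also membrane-bound, ran the other way. Its means were 3.25 ± 0.43 and 2.57 ± 0.32 CPM (SD, n = 4) in untreated CD34- and CD34+ cells (log2 -0.34 ± 0.13, adjusted p = 0.0623). With N1-AcSpd they were 3.52 ± 0.50 and 2.57 ± 0.24 CPM (log2 -0.45 ± 0.13, adjusted p = 0.0158). The second call was lost when mouse 4 was left out of N1-AcSpd CD34- cells (adjusted p = 0.0514). The untreated difference passed without mouse 2 of untreated CD34- cells (adjusted p = 0.0272), mouse 3 of N1-AcSpd CD34- cells (0.0398) or mouse 1 of untreated CD34+ cells (0.0489), each left out alone in that group.

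The secreted gelatinases differed from each other. Mmp2 was at 2.32, 3.13, 2.03 and 2.12 CPM in untreated CD34- cells and at 3.58, 4.11, 3.14 and 2.98 CPM in untreated CD34+ cells. It was higher in CD34+ cells of every mouse, while the lowest CD34+ library lay below the highest CD34- library (log2 0.53 ± 0.15, adjusted p = 0.0139). The untreated call of Mmp2 was lost when all libraries of mouse 1 (adjusted p = 0.105), mouse 3 (0.0546) or mouse 4 (0.0556) were left out. In N1-AcSpd libraries it was at 1.98, 2.02, 1.94 and 1.72 CPM and at 2.78, 2.96, 2.15 and 2.64 CPM (log2 0.46 ± 0.15, adjusted p = 0.0281). That call was lost without the N1-AcSpd libraries of CD34- mouse 3 (adjusted p = 0.054) or mouse 4 (0.0771), or of CD34+ mouse 1 (0.06), mouse 2 (0.079) or mouse 4 (0.0536). Mmp9 stayed between 0.110 and 0.491 CPM in the 16 libraries, with log2 fold changes of -0.75 ± 0.48 (adjusted p = 0.276) and 0.20 ± 0.47 (adjusted p = 0.816).

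Mmp19, which encodes a protease of basement membrane proteins, was at 2.41, 3.00, 3.51 and 3.29 CPM in untreated CD34- and at 4.78, 4.17, 4.77 and 5.39 CPM in untreated CD34+ cells, without overlap. The log2 fold change was 0.65 ± 0.14 (adjusted p = 0.00266), and 0.68 ± 0.14 with N1-AcSpd (adjusted p = 0.00162). Its counts could not be told apart from those of Tmem198b and Gm47093 on the opposite strand. Absolute differences from Mmp19 per library added up to 0.827% and 0.248% of the larger total.

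**Figure D3:**
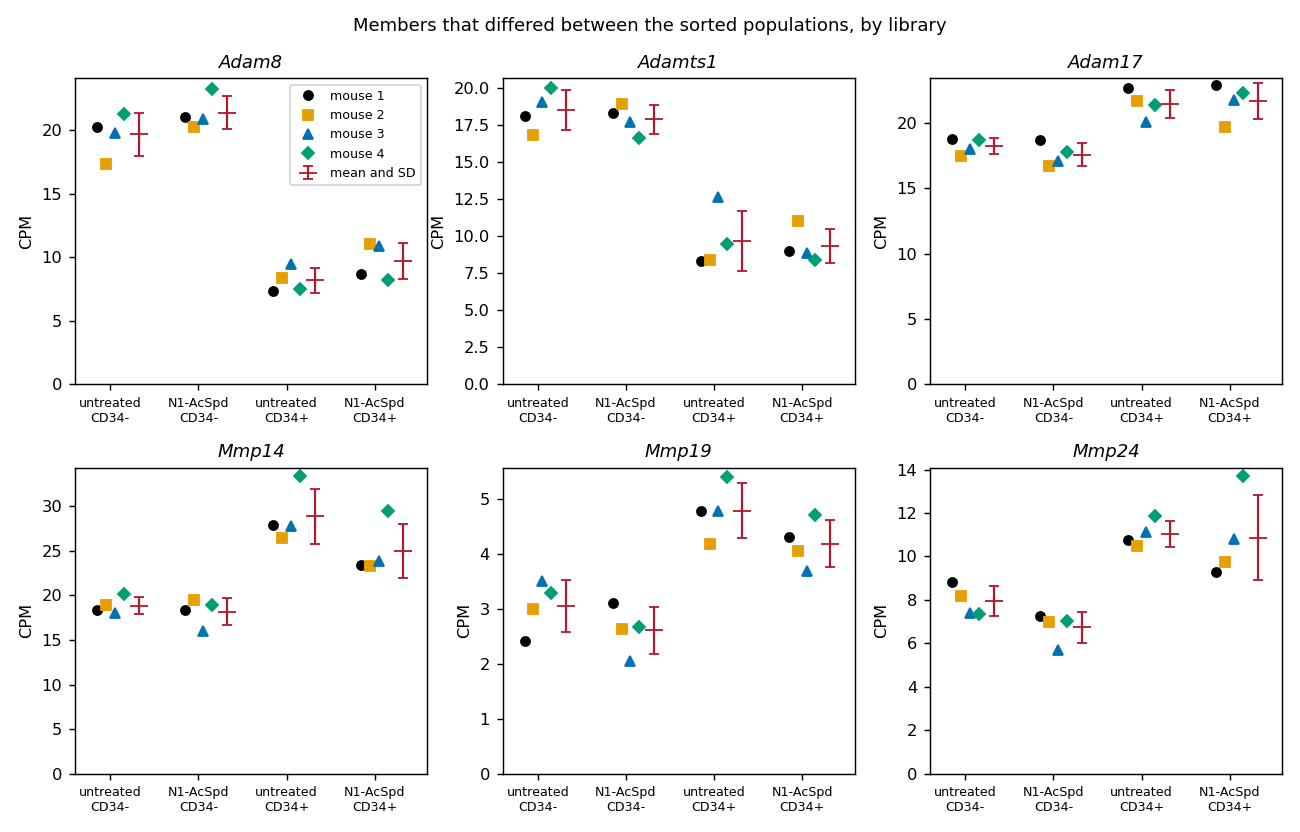
CPM of Adam8, Adamts1, Adam17, Mmp14, Mmp19 and Mmp24 in each library (points, by mouse) with the mean and SD of each group of 4 (red). Adam8 and Adamts1 lie lower in all CD34+ libraries, and the other 4 genes lie higher in all CD34+ libraries.

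Mmp3, Mmp10 and Mmp13 lie in 1 cluster on chromosome 9 (Mmp3 7445822 to 7455975, Mmp10 7502352 to 7510240, Mmp13 7272514 to 7283331 on GRCm38) and encode 2 stromelysins and a collagenase. All 3 had lower means in CD34+ cells. Their promoters are shown because genes of this cluster are known targets of AP-1 factors through a site close to the start. The 150 bases before the start of transcription, on the plus strand and taken from RefSeq (GRCm38.p6), are given 5' to 3', with the AP-1 motif TGANTCA and the TATA box motif TATAAA in capitals. They span chr9:7445672-7445821 for Mmp3, chr9:7502192-7502341 for Mmp10 and chr9:7272364-7272513 for Mmp13.
Mmp3: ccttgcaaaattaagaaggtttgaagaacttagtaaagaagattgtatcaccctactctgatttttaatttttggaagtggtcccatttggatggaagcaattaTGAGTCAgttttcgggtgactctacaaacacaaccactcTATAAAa
Mmp10: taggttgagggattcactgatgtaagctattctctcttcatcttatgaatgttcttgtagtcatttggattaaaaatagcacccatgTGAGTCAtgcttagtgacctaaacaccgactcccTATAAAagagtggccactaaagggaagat
Mmp13: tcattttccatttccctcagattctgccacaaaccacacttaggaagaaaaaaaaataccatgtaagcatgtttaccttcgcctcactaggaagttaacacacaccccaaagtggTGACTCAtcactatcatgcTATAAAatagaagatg

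The AP-1 motif, which reads the same on both strands apart from its middle base, begins 46, 63 and 35 bases before the start in Mmp3, Mmp10 and Mmp13, and the TATAAA run follows it in each. Over the 32851 promoters of 300 bases in the table (250 before and 50 after the start), 7.81% held the AP-1 motif on either strand, 8.32% held TATAAA on the gene's strand and 0.995% held both. Promoters were found for 36 of the 60 genes, 40 in all. Of these, 7 held the AP-1 motif: those of Mmp1a, Mmp1b, Mmp3, Mmp10, Mmp12 and Mmp13, all in the chromosome 9 cluster, and of Adam19. Adam8, Timp2 and Timp3 had neither run of letters in this window, and Adamts1 had TATAAA alone. A match of letters does not show that a factor bound there.

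Mmp3 was at 5.29, 4.21, 11.1 and 3.07 CPM in untreated CD34- cells of mice 1 to 4 and at 2.10, 3.07, 2.44 and 0.822 CPM in untreated CD34+ cells. It was lower in CD34+ cells of every mouse, by a log2 fold change of -1.49 ± 0.41 (adjusted p = 0.0127). Without the library with the highest value, 11.1 CPM in mouse 3, the log2 fold change was -0.99 (adjusted p = 0.0532). N1-AcSpd libraries had 4.66, 3.37, 5.89 and 2.91 CPM in CD34- cells and 1.52, 1.31, 1.47 and 1.53 CPM in CD34+ cells, without overlap (log2 -1.53 ± 0.42, adjusted p = 0.0116). This second difference held without any single library but was lost without mouse 1 (adjusted p = 0.0852).

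Mmp10 was at 3.96, 1.98, 3.42 and 1.49 CPM in untreated CD34- cells and at 1.19, 1.10, 1.19 and 0.514 CPM in untreated CD34+ cells, without overlap (log2 -1.44 ± 0.45, adjusted p = 0.0258). With N1-AcSpd it was at 2.97, 1.03, 2.32 and 1.31 CPM and at 0.742, 0.228, 0.981 and 0.587 CPM (log2 -1.57 ± 0.47, adjusted p = 0.0178). The untreated call was lost when mouse 1 (adjusted p = 0.0795) or mouse 3 (0.0677) was left out of untreated CD34- cells or mouse 4 out of untreated CD34+ cells (0.075). The second was lost when mouse 1 was left out of N1-AcSpd CD34- cells (adjusted p = 0.0587).

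Mmp13 had the largest F of the 34 genes in the test between mice given below. In untreated CD34- cells it was at 18.1, 4.09, 14.4 and 4.69 CPM in mice 1 to 4, and in untreated CD34+ cells at 6.60, 2.74, 7.37 and 2.98 CPM. N1-AcSpd libraries had 10.7, 2.80, 4.79 and 4.47 CPM in CD34- and 4.42, 2.16, 3.37 and 3.52 CPM in CD34+ cells. Mouse 2 was the lowest in every group, and mice 1 and 3 were above mice 2 and 4 in both untreated groups. The column labels give mice 1 and 3 codes that begin with X, and mice 2 and 4 codes that begin with Y. What the letters stand for is not given, and their part was not tested. The groups overlapped and the untreated cell type effect missed the threshold (log2 -1.08 ± 0.53, adjusted p = 0.149). With the mouse as a block it passed (log2 -0.95, adjusted p = 0.0218). With N1-AcSpd the effect missed the threshold without the block (log2 -0.75 ± 0.54, adjusted p = 0.335) and with it (adjusted p = 0.114). Mmp13 was lower in CD34+ cells of 4 of 4 mice in both conditions.

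A test of differences between the 4 mice, added after these values were seen, called 168 genes in the blocked fit (0.882% of all genes) and none of the 34 genes. Mmp13 came closest (adjusted p = 0.0601), with means over its 4 libraries of 9.96, 2.95, 7.49 and 3.92 CPM in mice 1 to 4. Mmp10 followed (adjusted p = 0.167), with 2.22, 1.08, 1.98 and 0.975 CPM. At an unadjusted p under 0.05 stood 11 of the 34 genes, beside 13.7% of all genes. Mmp12, the macrophage elastase gene of the same cluster, had means of 0.735, 0.380, 0.531 and 0.260 CPM (adjusted p = 0.365), and its cell type effects did not pass (log2 -0.57 ± 0.56 and -0.93 ± 0.56).

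**Figure D4:**
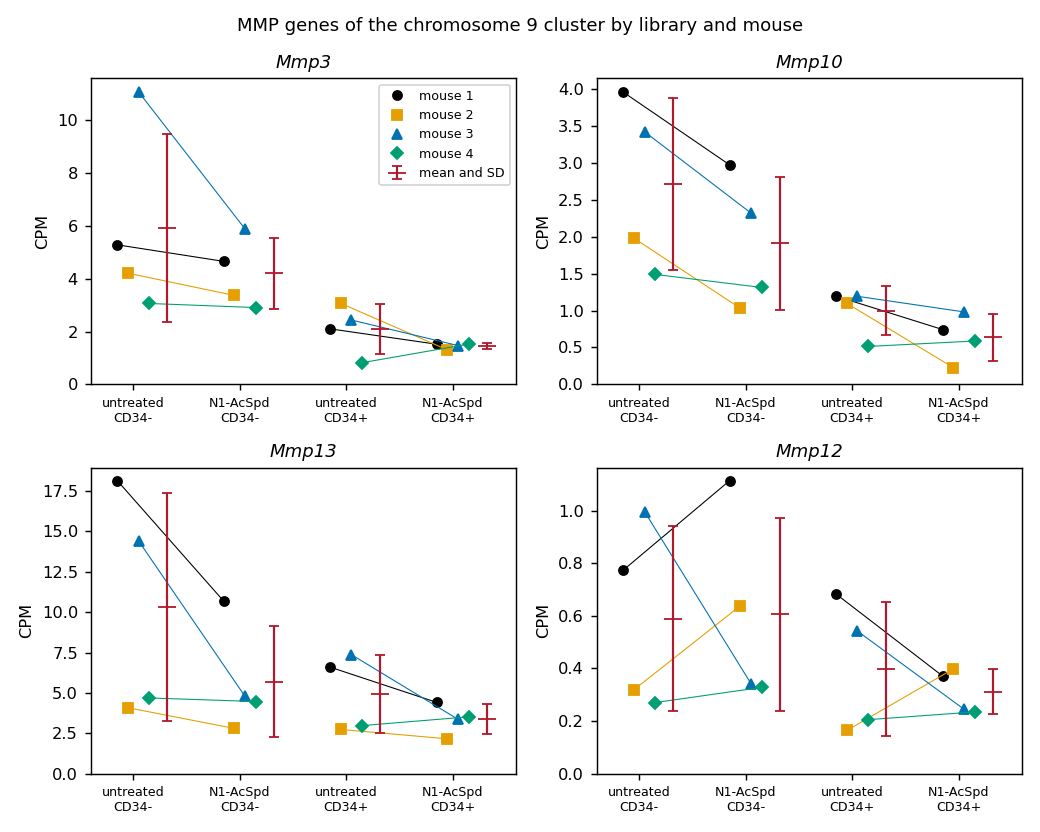
CPM of Mmp3, Mmp10, Mmp13 and Mmp12 in each library, with 1 colour and marker per mouse, lines joining the untreated and N1-AcSpd library of a mouse within a cell type, and the mean and SD of each group of 4 (red). Mice 1 and 3 (black, blue) lie above mice 2 and 4 for Mmp13 in both untreated groups.

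Among the ADAMs, Adam8 (ENSMUSG00000025473) had the largest difference. It encodes a protease best known from leukocytes and from invading tumour cells. It was at 20.3, 17.4, 19.8 and 21.3 CPM in untreated CD34- cells of mice 1 to 4 and at 7.34, 8.39, 9.48 and 7.55 CPM in untreated CD34+ cells. In N1-AcSpd cells the values were 21.1, 20.3, 20.9 and 23.3 CPM in CD34- and 8.72, 11.0, 10.9 and 8.22 CPM. No CD34+ library reached a CD34- library, and the progenitors were 2.41-fold higher without treatment (log2 -1.27 ± 0.11 for HFSCs over progenitors, adjusted p = 1.57e-06) and 2.20-fold higher with it (log2 -1.14 ± 0.11, adjusted p = 2.91e-06). Of the immune markers, Itgam ran from 3.55 to 5.17 CPM in CD34- and from 2.52 to 3.68 CPM in CD34+ libraries, and Ptprc from 0 to 2.03 CPM and from 0 to 1.92 CPM. H2-Ab1 ran from 5.96 to 8.81 CPM and from 6.74 to 11.0 CPM, with higher means in CD34+ cells in both conditions. Their part in the Adam8 difference was not tested.

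The sheddases Adam10 and Adam17 differed less. Adam17, which releases tumour necrosis factor and ligands of the epidermal growth factor receptor, was at 18.8, 17.5, 18.0 and 18.7 CPM in untreated CD34- and at 22.6, 21.7, 20.1 and 21.4 CPM in untreated CD34+ cells. This 1.17-fold difference passed (log2 0.23 ± 0.05, adjusted p = 0.00449), as did the 1.24-fold difference with N1-AcSpd (log2 0.30 ± 0.05, adjusted p = 0.000555). Iah1, on the opposite strand, overlaps Adam17 and had a mean count 17.2% away from it. Adam10, which starts the release of Notch receptors, had means of 14.0 ± 0.45 and 12.2 ± 1.49 CPM (SD, n = 4) in untreated CD34- and CD34+ cells. Its log2 fold change was -0.20 ± 0.08 (adjusted p = 0.078), it passed with the mouse as a block (adjusted p = 0.0353) and it passed when mouse 3 was left out of untreated CD34+ cells (adjusted p = 0.00742). With N1-AcSpd it was -0.15 ± 0.08 (adjusted p = 0.188).

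The other 6 tested ADAMs were Adam4, Adam9, Adam12, Adam15, Adam19 and Adam28, and none passed in either condition. Their log2 fold changes ran from -0.14 to 0.62 in untreated and from -0.54 to 0.51 in N1-AcSpd cells. With the mouse as a block Adam9 passed in N1-AcSpd cells (log2 0.32, adjusted p = 0.0426). Adam4 passed in untreated cells when mouse 1 was left out of the CD34- group (log2 0.97, adjusted p = 0.00872), and Adam15 in N1-AcSpd cells when mouse 4 was left out of untreated CD34- cells (log2 -0.27, adjusted p = 0.0438). Counts of Adam15 and Adam19 could not be told apart from those of opposite-strand genes. Absolute differences per library added up to 0.513% of the larger total for 4731419I09Rik and Adam15. For Gm16033 and Adam19 they added up to 0.529%.

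Among the ADAMTS genes, Adamts1, whose product cuts versican and aggrecan, was at 18.1, 16.9, 19.0 and 20.0 CPM in untreated CD34- cells and at 8.30, 8.39, 12.6 and 9.45 CPM in untreated CD34+ cells. In N1-AcSpd cells they were 18.3, 18.9, 17.7 and 16.6 CPM in CD34- and 9.02, 11.0, 8.89 and 8.39 CPM. The groups were apart in both conditions, with log2 fold changes of -0.93 ± 0.12 (adjusted p = 6.37e-05) and -0.94 ± 0.12 (adjusted p = 5.06e-05). Adamts9, which also cuts versican, ran the other way, at 0.215, 0.255, 0.260 and 0.316 CPM in untreated CD34- and at 0.682, 0.658, 0.271 and 0.976 CPM in untreated CD34+ cells. The untreated log2 fold change of 1.29 ± 0.46 (adjusted p = 0.0441) was lost with the mouse as a block (adjusted p = 0.0814). It was also lost without any 1 of 13 libraries, all but those of N1-AcSpd CD34- mice 2 and 4 and untreated CD34+ mouse 3, with adjusted p from 0.0522 to 0.144. With N1-AcSpd it was 1.65 ± 0.46 (adjusted p = 0.0123) and held without any single library, but was lost without mouse 1 (adjusted p = 0.0813).

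Adamts7, whose product cuts cartilage oligomeric matrix protein, was at 3.84, 3.02, 2.55 and 3.24 CPM in N1-AcSpd CD34- cells and at 4.97, 3.93, 5.64 and 5.52 CPM in N1-AcSpd CD34+ cells (log2 0.67 ± 0.13, adjusted p = 0.00113). In untreated cells the groups were also apart, at 4.09 to 5.07 and 5.20 to 5.75 CPM, but the difference missed the threshold (log2 0.27 ± 0.13, adjusted p = 0.125). Tbc1d2b, on the opposite strand, overlaps Adamts7, with mean counts of 750 and 93.2 UMIs. Their counts correlated at r = 0.239. The aggrecanase Adamts5 was at 0.742, 0.710, 0.684 and 1.07 CPM in N1-AcSpd CD34- and at 0.371, 0.512, 0.552 and 0.411 CPM in N1-AcSpd CD34+ cells (log2 -0.79 ± 0.22, adjusted p = 0.0142). Its untreated log2 fold change was 0.16 ± 0.22 (adjusted p = 0.764). The N1-AcSpd call was lost without the CD34- library of mouse 4 (adjusted p = 0.088) or the CD34+ library of mouse 1 (0.0907).

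Adamts15, a further proteoglycanase, was at 0.536, 0.816, 0.418 and 0.492 CPM in N1-AcSpd CD34- cells and at 0.186, 0.398, 0.368 and 0.294 CPM in N1-AcSpd CD34+ cells (log2 -0.87 ± 0.30, adjusted p = 0.0366). This was lost with the mouse as a block (adjusted p = 0.0635) and without the N1-AcSpd libraries of CD34- mouse 1 (0.0559) or mouse 2 (0.158), or of CD34+ mouse 1 (0.163) or mouse 4 (0.0772). Adamts2, Adamts4, Adamts13 and Adamts17 did not pass in either condition. Adamts17 had counts near-identical to those of Gm44609 on the opposite strand (2.6%). Adamts13, which encodes the protease of von Willebrand factor, had 4583 to 16169 UMIs in 15 libraries and 0 in mouse 4 of N1-AcSpd CD34- cells, and Adamts4 was at 0 in 10 libraries and at 10 to 34 UMIs in the other 6. Adamts4 passed in N1-AcSpd cells when mouse 4 was left out of untreated CD34- cells (adjusted p = 0.0477) or mouse 1 out of N1-AcSpd CD34- cells (0.0376). Adam19, Adam28 and Mmp17 were at 0 in 1, 2 and 1 libraries and at 8 or more UMIs in the rest.

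In CD34- progenitors, N1-AcSpd was compared with no treatment. None of the 34 genes passed in edgeR, beside 0.614% of all genes, while 4 had an unadjusted p under 0.05 (13.6% of all genes) and DESeq2 called 2 (2.93% of all genes). The 2 were Timp3 and Adamts7. Timp3 had a log2 fold change of -0.53 ± 0.13 (adjusted p = 0.0837), was lower in 4 of 4 mice with no overlap, and passed with the mouse as a block (adjusted p = 0.0283), the only one of the 34 genes called there, beside 1.83% of all genes. Adamts7 had a log2 fold change of -0.50 ± 0.13 (adjusted p = 0.099), with every untreated library, from 4.09 to 5.07 CPM, above every treated one, from 2.55 to 3.84 CPM. The other 2 with an unadjusted p under 0.05 were Adamts5 (log2 0.58 ± 0.22, adjusted p = 0.303) and Mmp2 (log2 -0.32 ± 0.15, adjusted p = 0.367). The median of the 34 genes was -0.09, beside 0.00 for all genes tested. Below 0 lay 24 of the 34, beside 9482 of all 19049.

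In CD34+ cells 1 of the 34 genes passed, Timp3, beside 0.325% of all genes called in either direction and 0.136% called lower with N1-AcSpd. DESeq2 called 2 (2.22% of all genes) and 6 had an unadjusted p under 0.05 (13.2% of all genes). Timp3 fell by 0.75 ± 0.13 on the log2 scale (adjusted p = 0.0274), from 38.1 ± 3.02 to 22.6 ± 1.35 CPM (SD, n = 4), and the blocked fit gave an adjusted p of 0.00968. The call was lost when mouse 1, 2 or 4 was left out of untreated CD34+ cells or any mouse out of N1-AcSpd CD34+ cells, with adjusted p from 0.0501 to 0.0985, while the log2 fold change stayed between -0.79 and -0.70. As above, these reads are shared with Syn3. The second gene of DESeq2 was Timp2, at 29.5 ± 2.43 CPM without and 22.8 ± 3.19 CPM with N1-AcSpd, and edgeR gave log2 -0.37 ± 0.10 (adjusted p = 0.16).

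Of the other genes with an unadjusted p under 0.05 in CD34+ cells, Mmp2, Mmp14 and Adamts15 had log2 fold changes of -0.39 ± 0.15, -0.21 ± 0.09 and -1.01 ± 0.30. Adam8 had 0.24 ± 0.11. After adjustment their p-values ran from 0.179 to 0.351. Mmp3, Mmp10 and Mmp13 had log2 fold changes from -0.87 to -0.49 in CD34- and from -0.64 to -0.53 in CD34+ cells, with SEs from 0.39 to 0.54 and adjusted p from 0.511 to 0.778. In CD34- cells all 3 were lower with N1-AcSpd in 4 of 4 mice, and none passed. The median of the 34 genes in CD34+ cells was -0.09, beside -0.01 for all genes tested. Below 0 lay 23 of the 34, beside 10116 of all 19049.

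**Figure D5:**
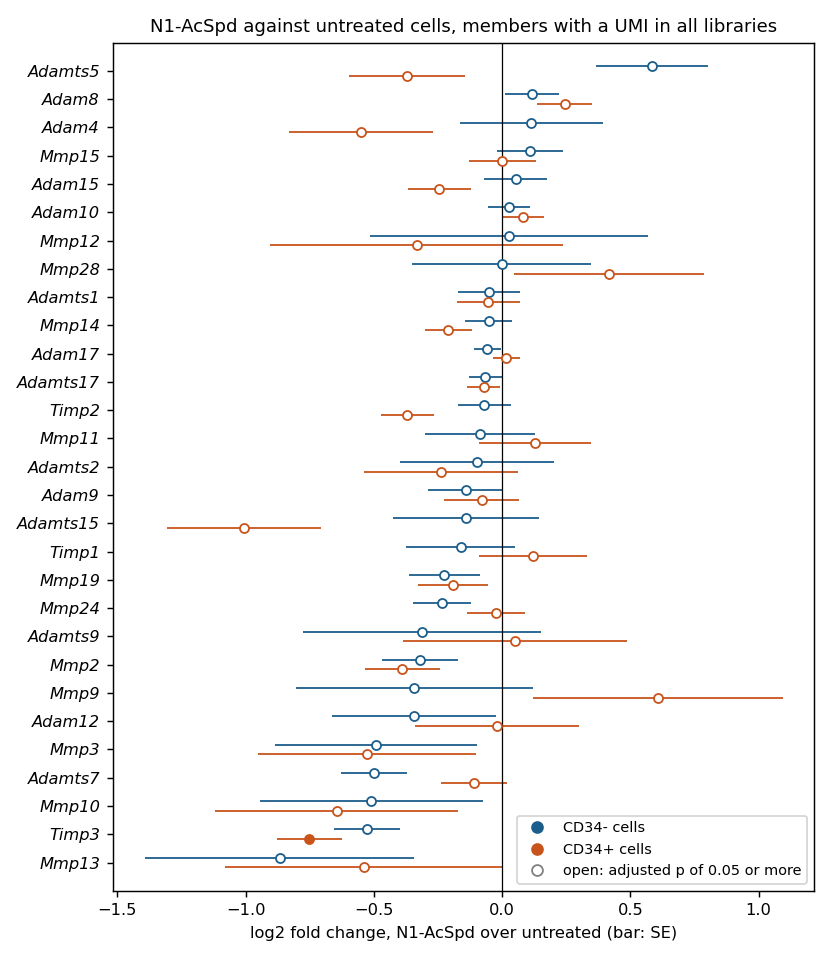
Log2 fold change of N1-AcSpd over untreated cells with its SE for the 29 tested genes that had a UMI in all 16 libraries, in CD34- (blue) and CD34+ (orange) cells. Timp3 in CD34+ cells is the only filled point, which marks an adjusted p under 0.05.

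The interaction asked whether the cell type effect differed between untreated and N1-AcSpd cells. No gene passed among the 34 or among all 19049 (0.0% in edgeR), and of the 34 genes 2 had an unadjusted p under 0.05 (4.19% of all genes) and DESeq2 called none (0.378% of all genes). The 2 were Adamts5 (-0.96 ± 0.31, unadjusted p = 0.0193) and Adamts7 (0.39 ± 0.18, unadjusted p = 0.0489). The 5 genes called only with N1-AcSpd are therefore not shown to differ in their cell type effect between the conditions.

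Genes that act with these proteases were described from 4 lists, whose counts stand beside 16.1% of all genes called higher and 16.1% called lower in untreated HFSCs, and 16.5% and 16.8% with N1-AcSpd. Of 19 regulators of MMPs, ADAMs and TIMPs, 16 were tested, 4 were higher and 5 lower in untreated HFSCs, and 3 and 5 with N1-AcSpd. Thbs1, which encodes a matrix protein that binds MMPs and their receptor LRP1, was 2.38 ± 0.23 higher on the log2 scale in untreated HFSCs (adjusted p = 3.59e-06). Pcsk5, a proprotein convertase gene, was higher by 2.18 ± 0.36 (adjusted p = 0.000428), from few UMIs (means of 0.292 CPM in untreated CD34- and 1.33 CPM in untreated CD34+ cells). The convertase gene Furin ran the other way, with means of 140 and 76.6 CPM (log2 -0.87 ± 0.07, adjusted p = 1.43e-06). Pcsk6 and Pcsk7 were not called. Tspan33, which encodes a tetraspanin partner of ADAM10, had a log2 fold change of -1.07 ± 0.14 (adjusted p = 6.68e-05).

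Of the plasminogen system and the matriptase pathway, proteases that activate MMP precursors or their own inhibitors, 8 of 10 genes were tested. None was called higher in HFSCs, 5 were lower without treatment and 4 with it. With the mouse as a block, Serpine2, which encodes a protease inhibitor, was called higher in untreated HFSCs (log2 0.41, adjusted p = 0.0274), and Spint2, a matriptase inhibitor gene, was called lower with N1-AcSpd (log2 -0.15, adjusted p = 0.0161). The urokinase receptor gene Plaur had a log2 fold change of -1.64 ± 0.30 (adjusted p = 0.000968), the matriptase gene St14 -0.50 ± 0.14 (adjusted p = 0.0166) and the urokinase gene Plau -0.48 ± 0.17 (adjusted p = 0.0407), all in untreated cells. St14 missed the threshold with N1-AcSpd (adjusted p = 0.0942).

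All 18 listed surface proteins that ADAM10 or ADAM17 can release were tested. In untreated HFSCs 2 were higher and 8 lower, and 4 and 9 with N1-AcSpd. The syndecan gene Sdc4 was called higher in untreated HFSCs with the mouse as a block (log2 0.31, adjusted p = 0.0401). The growth factor genes Epgn and Areg had log2 fold changes of -1.43 ± 0.10 (adjusted p = 5.84e-07) and -1.23 ± 0.17 (adjusted p = 9.31e-05) in untreated cells. The interleukin 6 receptor gene Il6ra had -1.16 ± 0.13 (adjusted p = 1.36e-05). Of 14 substrates and relatives of ADAMTS proteases only 4 were tested. Adamtsl4, which encodes a protease-free relative, and the proteoglycan gene Bgn were higher in untreated HFSCs, by 2.11 ± 0.26 (adjusted p = 4.07e-05) and 1.51 ± 0.34 (adjusted p = 0.00387). Without the block, edgeR called no gene of the 4 lists for treatment in either cell type or for the interaction. With the mouse as a block it called 3 for treatment in CD34- cells: Areg (log2 0.45, adjusted p = 0.0303), the Notch ligand gene Jag1 (log2 -0.38, adjusted p = 0.0329) and Adamtsl5 (log2 0.39, adjusted p = 0.0427). DESeq2 called Jag1 (adjusted p = 0.00183) and Adamtsl5 (adjusted p = 0.00963) there, and Adamtsl5 also in CD34+ cells (adjusted p = 0.0496).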

How the data were processed

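RNA of 16 sorted libraries was measured by 3' sequencing with UMIs. The authors demultiplexed reads with FLEXBAR, mapped them to mm10 with kallisto (0.45.0 in the submitters' processing notes) and used BEDTools to give tags to genes before counting UMIs. The annotation release is not given in the sources used here. The deposited values are raw UMI counts, and 156050 empty cells were read as 0. Symbols and positions came from GENCODE on GRCm38, where 62 of 32989 identifiers had no match (0.116% of counts).

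Tests used edgeR 4.0.16 (R 4.3.3) on genes averaging 5 or more UMIs, with TMM scaling and two-sided quasi-likelihood tests in a fit of all 16 libraries, each group with its own mean. P-values were Benjamini-Hochberg adjusted over all 19049 genes and called under 0.05. SE is the size of the log2 fold change over the square root of F, and CPM uses TMM-scaled totals. For some genes with few UMIs, such as Adamts5, the test gave a larger p-value than this SE alone would. Their SE therefore understates the uncertainty. Replicate numbers stand for animals in the labels, so samples are paired. Over 24 pairs of libraries of the same mouse, deviations from the group means correlated at r = 0.01 on average (lowest -0.06, highest 0.08). Libraries of a group were not copies of each other. A gene was called near-identical to an overlapping one when absolute differences per library added up to under 5% of the larger total.

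Genes were named if called in any of the 5 comparisons, together with Timp1 to Timp4, Adam10, Adam17, Mmp2, Mmp9 and Mmp14, and from each list the 3 largest called changes in untreated cells. Mmp12, Mmp13 and other genes named beside these were chosen after their values were seen. The gene set and the lists were chosen with earlier results of these data known. Alternatives were other scaling and filters, DESeq2 1.42.0, the mouse as a block, only the compared groups, a log2 threshold of 0.5, dropping near-identical genes, and runs without each library or mouse. The procedure was tested on simulated data.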

Additional observations from a re-analysis of the deposited data

Results flagged for a closer look

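Within each group of 4 libraries, the 19 named genes were examined for a library that stood apart from the other 3, by the share of the group's range taken up by the gap to the nearest value. Of 76 such groups, 5 passed Dixon's 95% limit, and chance passes about 1 in 20. Mmp10 in untreated CD34+ cells was lowest in mouse 4, at 0.514 CPM, with the other 3 mice between 1.10 and 1.19 CPM. Adamts5 in N1-AcSpd CD34- cells was highest in mouse 4, at 1.07 CPM, with the others between 0.684 and 0.742 CPM. Mmp14 in N1-AcSpd CD34+ cells was highest in mouse 4, at 29.5 CPM, with the others between 23.3 and 23.8 CPM. Timp2 in untreated CD34- cells was highest in mouse 2, at 13.9 CPM, with the others between 12.6 and 12.8 CPM. Adam10 in N1-AcSpd CD34+ cells was lowest in mouse 2, at 12.6 CPM, with the others between 12.9 and 13.0 CPM.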

How the results depend on the processing

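No called gene changed its direction under any alternative run. Leaving out a library, a mouse or the near-identical genes gave 9 to 13 called genes for the cell type effect in untreated cells (12 in the report) and 10 to 19 in N1-AcSpd cells (17), the lowest without mouse 1. The treatment effect in CD34- cells gave 0 throughout these runs, but 2 genes in DESeq2 and 1 with the replicate block. In CD34+ cells leaving out libraries or mice gave 0 to 1, leaving out near-identical genes gave 0 and DESeq2 2. The block, which pairs the libraries of a mouse, changed no other call of the 34 genes and the 4 lists than those given in the report. Of the single calls, named with adjusted p-values, DESeq2 lost Adamts15 (adjusted p = 0.0844), Adamts5 (0.0605) and Mmp2 (0.0504) in N1-AcSpd cells and, of the lists, Rhbdf1 (0.0677) in untreated and Rhbdf2 (0.0605) in N1-AcSpd cells. A fit of only the compared groups lost Mmp3 (0.0606) and Mmp2 (0.0514) in untreated cells and Adamts15 (0.106) in N1-AcSpd cells, and it added Adamts7 (0.0437) in untreated and Adam15 (0.0245) in N1-AcSpd cells. Without a low-count filter Adamts9 was lost (0.0846) and Mmp1a gained as lower (0.0181) in untreated cells, and Adamts15 (0.0842) and Mmp2 (0.0518) were lost in N1-AcSpd cells. Library totals lost Adamts15 (0.0677) and Mmp15 (0.0553) and added Adam9 (0.0297) in N1-AcSpd cells, and added Adamts7 (0.0317) in untreated cells. Leaving out 1 of the mice ended at least 1 call of Mmp2, Mmp3, Mmp10, Mmp15, Timp1, Adamts5, Adamts9 and Adamts15, and of Timp3 for treatment. Scaling by library totals moved the median log2 fold change of all genes to 0.14 in untreated and 0.11 in N1-AcSpd cells. Depth limits the genes below 1 CPM, such as Adamts5, Adamts9, Adamts15 and Mmp9, which rest on few UMIs per library. A count of 3 UMIs corresponds to 0.103 to 0.194 CPM. The cause of these changes was not tested.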
